A study of Mus musculus with 7 samples.

Results

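The genes described here were the 5 tubulin folding cofactors Tbca, Tbcb, Tbcc, Tbcd and Tbce and the 5 tubulin genes Tuba1a, Tuba1b, Tubb2a, Tubb5 and Tubb6, which were 10 of the 55487 genes in the count table. The group was built around Tbcb, which was chosen by its counts: it had none in any library treated with valproic acid sodium salt (VPA). Its difference between the groups is therefore given as a description without a test, and the other 9 genes were added by family. Of the 10 genes, 9 had counts and 9 passed the filter on low counts, and Tbcd had no count in any library. The RNA came from precision-cut liver slices (PCLS) of healthy adult male Balb/c mice, collected on day 3 of culture in supplemented Williams' Medium E. The slices of 3 libraries were cultured without VPA (CTR), and those of 4 libraries with 2.5 mM VPA, an inhibitor of class I histone deacetylases. Slices hold all the cells of the liver together with a cut surface, so in these bulk libraries fewer cells of a type and less RNA per cell cannot be told apart. The sample titles carry a code whose number was 71, 72 or 74 in both groups and 73 in VPA only, and the labels do not say what this number marks, so p-values measure the spread between these libraries only.

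Microtubules are built from dimers of α- and β-tubulin. A newly made tubulin chain is held by prefoldin, folded inside the CCT chaperonin and then handed to the cofactors. TBCB and TBCE take up α-tubulin, TBCA and TBCD take up β-tubulin, and TBCC joins the complex in which the dimer is completed and released. The small GTPase ARL2 works together with TBCD. In the liver, microtubules carry secretory vesicles and endosomes in hepatocytes and serve cell shape and division in the other cells. Mammals have several α- and β-tubulin genes whose proteins are closely alike and differ mainly at the C-terminal end. The amount of tubulin RNA is itself controlled by free tubulin dimers through TTC5, which recognizes the first residues of a tubulin chain as it is made.

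The 7 libraries held 1400887 to 4773750 counts on genes, and 3 counts, the most that a count of 0 allows, were 0.591 to 2.41 CPM depending on the library. CPM is the count scaled to a library of 1e6 counts after TMM normalization, and this limit covers counting error only. Of 10876 genes tested with edgeR's quasi-likelihood test, 1 was higher (0.00919%) and 0 were lower (0.00%) with VPA at an adjusted p under 0.05. At an unadjusted p under 0.05, 397 (3.65%) were higher and 503 (4.62%) were lower, and DESeq2 gave 39 (0.256%) and 115 (0.754%) of 15261 genes at an adjusted p under 0.05. The 12 hepatocyte markers, which check the tissue, summed to 6853 to 19549 CPM (CTR) and 5203 to 17026 CPM (VPA). Of the 10 tested, 7 had positive and 3 negative log2 fold changes, with a median of 0.35 and 0 at an unadjusted p under 0.05, and Cyp2e1, Pck1 and Tat were at 0 in some libraries. Mean levels of Alb were 1545 (CTR) and 2328 CPM (VPA). The summed level of 12 markers of activated hepatic stellate cells (HSC) ran from 3533 to 5835 CPM (CTR) and from 1853 to 2634 CPM (VPA), with Pdgfrb and Des at 0 in some libraries. That of 12 proliferation markers ran from 109 to 133 CPM in CTR and from 17.4 to 58.8 CPM in VPA libraries, with Aurkb at 0 in all libraries and Mki67, Ccnb1, Ccnb2, Cdk1, Aurka, Plk1, Cenpf, Ube2c and Rrm2 at 0 in some.

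Tbcb (ENSMUSG00000006095) (chromosome 7, 30224131 to 30232272, − strand, GRCm38) is annotated as protein coding, and its protein holds a CAP-Gly domain, a fold that binds the C-terminal end of α-tubulin. It had 303, 358 and 209 counts in CTR replicates 1, 2 and 3, which were 119, 70.6 and 115 CPM. It had 0 counts in all 4 VPA libraries. At the mean CTR level of 102 ± 26.9 CPM (SD, n = 3), the VPA libraries would have held 155, 330, 126 and 134 counts in replicates 1 to 4. With 3 counts taken as the limit in each VPA library, the mean CTR level was 53.7-fold the mean of these limits. The lowest CTR level was 29.3-fold the highest of them. Both bounds cover counting error only. These values chose the gene and say nothing beyond themselves. Fewer genes had counts in each VPA library (14359 to 16761) than in each CTR library (17744 to 19756). VPA replicate 2 had counts on 15241 genes at a depth of 3102450, and CTR replicate 3 on 17744 genes at 1743675. The part of this difference in the zeros was not tested. Among the genes tested, 39 (0.359%) had no counts in any VPA library and 5 (0.046%) had none in any CTR library. Over the whole table, 63 genes with a mean of at least 10 CPM in CTR had no counts in any VPA library, 35 of them with counts in every CTR library. In the other direction, 10 genes with a mean of at least 10 CPM in VPA had no counts in any CTR library, of which 1 had counts in every VPA library.

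Tbcb had the highest mean CTR level of the genes without counts in any VPA library. It was followed by 1300017J02Rik at 78.3 CPM, Sla2 at 56.2 CPM, Chaf1a at 52.5 CPM and Uqcrc2 at 47.7 CPM. Sla2 also had no counts in CTR replicate 3. Uqcrc2, a core subunit of respiratory complex III that every respiring cell uses, was listed at 0 counts in CTR replicate 1 and at 23 and 253 counts in CTR replicates 2 and 3. The genes whose centered log2 CPM profile over the 7 libraries lay nearest to that of Tbcb were 1300017J02Rik, Chaf1a, B3gntl1, Bcl6b and Spag7, with mean absolute differences of 0.47, 0.47, 0.75, 0.83 and 0.86 on the log2 scale. All 5 had counts in each CTR library and none in any VPA library, which the choice of Tbcb by its zeros made likely from the start.

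Zeros beside well-counted libraries of the same group were found in every library. A gene was listed at 0 although the mean of the other libraries of its group would have given at least 20 counts for 2.33%, 3.2% and 3.26% of such genes in CTR replicates 1 to 3, and for 8.71%, 6.69%, 3.86% and 3.35% in VPA replicates 1 to 4. Every VPA library lay above every CTR library in this share, and its part in the absence of Tbcb counts was not tested. A gene at 0 in all libraries of a group, as Tbcb in VPA and Tbcd in both, cannot be found by this measure. An example from the wider pathway, chosen after its values were seen, was Tubg1, the γ-tubulin of centrosomes, at 0 in VPA replicate 3 and at 49, 83 and 56 counts in VPA replicates 1, 2 and 4.

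The 5′ end of Tbcb overlaps Polr2i, a subunit of RNA polymerase II on the + strand from 30231948 to 30233390, by 325 bases. Polr2i starts 7817 bases away from the 3′ end of Tbcb, where a 3′ end library places its reads. Polr2i was counted in every library, at 126, 116 and 90.5 CPM in CTR replicates 1 to 3 and at 89.4, 106, 123 and 129 CPM in VPA replicates 1 to 4. Its groups overlapped (log2 fold change 0.01, standard error 0.191, adjusted p = 0.995 from edgeR). The other annotated genes within 20 kb of Tbcb, Gm44600, Ovol3 and Wdr62, had no counts in any library. Among genes with a mean of at least 10 CPM over the libraries, a 0 in at least 1 library was found for 14.7% of 4921 genes that overlap another annotated gene and for 19.6% of 3791 that do not. The gene was at 0 in all 4 VPA libraries for 10 and 8 genes of these, 0.203% and 0.211%.

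**Figure D1:**
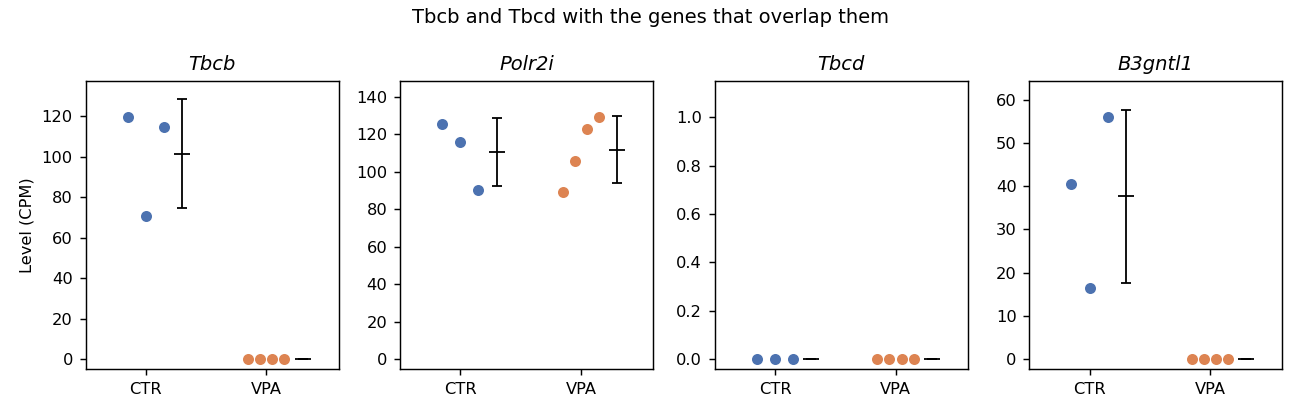
Level in CPM (y axis, linear, from 0) of Tbcb, its overlapping neighbour Polr2i, Tbcd and its overlapping neighbour B3gntl1 in the 3 CTR and 4 VPA libraries (points), with the mean and SD of each group (black). Tbcb and B3gntl1 sit at 0 in all 4 VPA libraries, Polr2i has counts in all 7 libraries, and Tbcd sits at 0 in all 7.

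Promoter windows of RefSeq (GRCm38.p6, 250 bases before to 50 after the annotated start) were matched to 9 of the 10 genes. The windows of Tbcb, the gene without counts in VPA libraries, and of Tubb5, the most abundant of the 10 genes, are shown, on the − strand at chr7:30231342-30231641 and chr17:35838252-35838551. Capitals mark, on either strand, the CCAAT box spelled as such, the GC box as GGGCGG, the TATA box as TATAAA and the E box as CACGTG, and no marked motifs overlap.
Tbcb: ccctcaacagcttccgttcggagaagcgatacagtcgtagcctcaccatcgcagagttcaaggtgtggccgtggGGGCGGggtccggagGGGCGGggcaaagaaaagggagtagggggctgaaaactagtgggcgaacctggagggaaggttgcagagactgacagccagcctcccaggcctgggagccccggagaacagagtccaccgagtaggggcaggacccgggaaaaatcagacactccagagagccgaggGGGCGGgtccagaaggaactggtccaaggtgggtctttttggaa
Tubb5: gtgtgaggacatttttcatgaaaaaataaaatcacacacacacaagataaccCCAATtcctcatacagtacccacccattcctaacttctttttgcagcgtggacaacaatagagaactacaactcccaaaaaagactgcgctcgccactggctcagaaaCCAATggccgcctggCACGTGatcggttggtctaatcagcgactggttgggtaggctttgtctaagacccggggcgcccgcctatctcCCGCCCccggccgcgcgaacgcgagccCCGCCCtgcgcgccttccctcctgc
The RefSeq start used for Tbcb lies 881 bases inside the GENCODE gene, so that 62 bases of its window fall in the first exon and 238 in the first intron of a transcript with 6 exons. The whole window lies downstream of the start codon of this transcript and does not cover the sequence before the GENCODE start. For Tubb5 the starts lie 5 bases apart. The Tbcb window holds 3 matches to GGGCGG, the GC box, which 35.9% of 27025 promoters contain at least once, and 8 of the 9 windows hold it. The Tubb5 window holds 2 matches to GGGCGG, 2 to CCAAT, which 37.9% of promoters contain, and 1 to CACGTG, which 7.24% contain. The CCAAT box was found in 4 of the 9 windows, and the TATA box, which 14.2% of promoters contain, in 1. Such matches are letters in a window and not evidence of a factor bound there.

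Among the other cofactors Tbca was the most abundant. Tbca (ENSMUSG00000042043, chromosome 13, 94788910 to 94842922, + strand) captures β-tubulin after its release from the chaperonin. It was at 392, 345 and 386 CPM in CTR replicates 1 to 3 and at 311, 288, 393 and 275 CPM in VPA replicates 1 to 4. VPA replicate 3 lay above all CTR libraries and the other VPA libraries below all of them. The means were 374 ± 25.8 CPM (SD, n = 3) and 317 ± 53.2 CPM (SD, n = 4). The log2 fold change of Tbca was −0.24 (standard error 0.161, adjusted p = 0.812 from edgeR). It became −0.36 once VPA replicate 3 was left out (unadjusted p = 0.0347, adjusted p = 0.505 from edgeR).

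Tbcc (ENSMUSG00000036430, chromosome 17, 46890684 to 46891847, + strand), which stimulates GTP hydrolysis by tubulin as the dimer is released, was at 27.2, 26.4 and 23.0 CPM in CTR and at 7.18, 17.8, 12.8 and 28.7 CPM in VPA libraries. VPA replicate 4 exceeded the CTR values and the other VPA libraries were under them. The means of Tbcc were 25.5 ± 2.21 CPM (CTR) and 16.6 ± 9.14 CPM (VPA). The log2 fold change of Tbcc was −0.62 (standard error 0.475, adjusted p = 0.858 from edgeR). Leaving out VPA replicate 1 made it −0.37, leaving out VPA replicate 4 made it −1.01, and a block for the replicate number made it −1.09. Tbce (ENSMUSG00000039233, chromosome 13, 13997949 to 14039638, − strand), the partner of TBCB on α-tubulin, was at 11, 14.0 and 11.5 CPM in CTR and at 20.9, 8.30, 14.5 and 13.6 CPM in VPA libraries, with the CTR range inside that of VPA. The means of Tbce were 12.2 ± 1.59 CPM (CTR) and 14.3 ± 5.16 CPM (VPA). The log2 fold change of Tbce was 0.22 (standard error 0.474, adjusted p = 0.961 from edgeR). Its sign turned to −0.19 with limma-voom, to −0.0475 with a block for the number in the title code and to −0.0188 without VPA replicate 1. The counts behind Tbce were 18 to 71 per library. B3galnt2 overlaps the 3′ end of Tbce by 1155 bases on the other strand, and as the use of strand in the counting is not stated, reads of the overlap cannot be told apart.

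Tbcd (ENSMUSG00000039230, chromosome 11, 121451949 to 121617164, + strand), which completes the dimer with TBCE and TBCC, was listed at 0 counts in all 7 libraries, which allows up to 0.591 to 2.41 CPM depending on the library if only counting error is considered. Well-counted genes were also listed at 0 in single libraries, and whether the RNA of Tbcd was absent was not tested. The 3′ end of Tbcd overlaps that of B3gntl1, a glycosyltransferase-like gene on the − strand, by 968 bases. Here too the use of strand in the counting is not stated, so reads of the overlap cannot be told apart. B3gntl1 had 103, 83 and 102 counts in CTR replicates 1 to 3 and 0 counts in all VPA libraries. Without Tbcb, the 4 other cofactors summed to 385 to 430.3 CPM in CTR and to 314 to 421 CPM in VPA libraries.

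**Figure D2:**
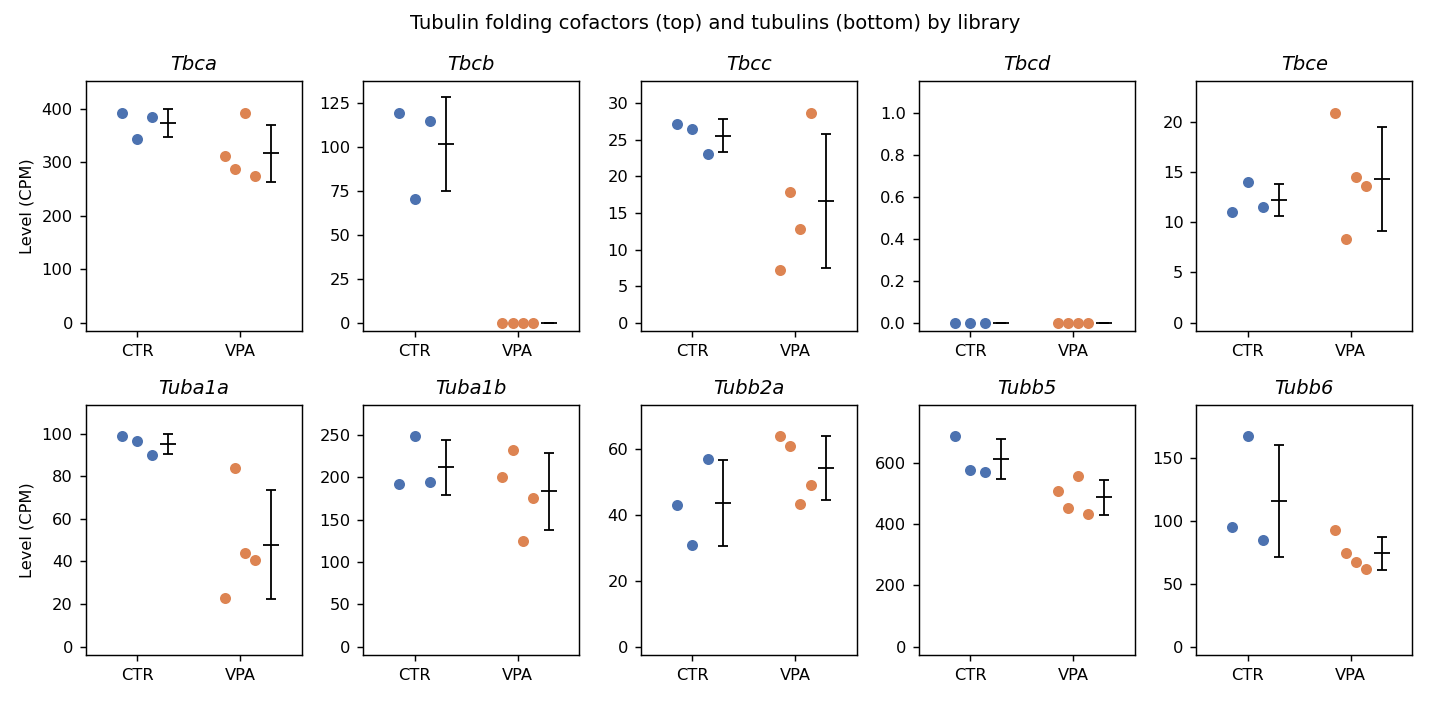
Level in CPM (y axis, linear, each panel on its own scale from 0) of the 5 folding cofactors (top) and 5 tubulins (bottom) in the 3 CTR and 4 VPA libraries (points, in replicate order), with the mean and SD of each group (black). The groups are apart for Tbcb, Tuba1a and Tubb5 and overlap for the other genes with counts.

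The tubulins were counted in every library. In CTR libraries their mean levels ran from Tubb5 at 610.4 ± 65.2 CPM (SD, n = 3) over Tuba1b at 212 ± 32.0, Tubb6 at 116 ± 45 and Tuba1a at 95.2 ± 4.70 to Tubb2a at 43.6 ± 13.0 CPM. In VPA libraries they were 487 ± 57.0 CPM (SD, n = 4) for Tubb5, 184 ± 45.8 for Tuba1b, 74.2 ± 13.4 for Tubb6, 54.3 ± 9.73 for Tubb2a and 47.9 ± 25.8 CPM for Tuba1a. Reads came from the 3′ end, so these levels do not grow with gene length and need no division by it. In CTR libraries Tubb6, Tbcb and Tuba1a had overlapping ranges. In VPA libraries Tubb6, Tubb2a and Tuba1a did. Tubb5 lay above every other gene of the group in each library.

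Of the 8 genes tested other than Tbcb, 6 had a negative and 2 a positive log2 fold change, with a median of −0.28 against −0.06 over all genes tested, of which 54.2% were negative. At an unadjusted p under 0.05, 2 of the 8 were lower, Tuba1a and Tubb6, and 0 were higher, where the background is 4.62% and 3.65%. After adjustment over all genes 0 of the 8 passed 0.05 in edgeR's test, and 0 in DESeq2's. The groups did not overlap, with VPA lower, for 2 of the 8, Tuba1a and Tubb5, against 7.41% of the genes tested.

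Tuba1a (ENSMUSG00000072235, chromosome 15, 98949837 to 98953703, − strand), an α-tubulin best known from neurons, was at 98.9, 96.8 and 89.9 CPM in CTR replicates 1 to 3. It was at 22.9, 83.9, 44.2 and 40.8 CPM in VPA replicates 1 to 4. The CTR libraries lay close together, VPA replicate 2 lay just below them, and the other VPA libraries lay further down. The log2 fold change of Tuba1a was −0.98 (standard error 0.387, unadjusted p = 0.0374, adjusted p = 0.571 from edgeR). It was −1.40 without VPA replicate 2 (adjusted p = 0.249), and the unadjusted p went up to 0.0835 when other libraries were left out. Of the windows of 50 bases in the last 300 bases of Tuba1a, 21.5% occur in transcripts of other genes, among them Tuba1b and Tuba1c, and as the handling of such reads is not stated, the division of counts among these genes is uncertain.

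Tubb6 (ENSMUSG00000001473, chromosome 18, 67390717 to 67402749, + strand), a β-tubulin found at low levels in many tissues, was at 95.4, 168 and 85.0 CPM in CTR and at 92.7, 74.7, 67.4 and 61.9 CPM in VPA libraries. CTR replicate 2 lay far above the other 6 libraries, and VPA replicate 1 fell between the CTR values. The log2 fold change of Tubb6 was −0.65 (standard error 0.274, unadjusted p = 0.0472, adjusted p = 0.592 from edgeR). Without CTR replicate 2 it was −0.29, with an unadjusted p of 0.227 from edgeR. Tubb5 (ENSMUSG00000001525, chromosome 17, 35833921 to 35838306, − strand), the β-tubulin of most dividing cells, was at 686, 575 and 571 CPM in CTR and at 508, 451, 557 and 431 CPM in VPA libraries, with no overlap. VPA replicate 3 was the nearest to the CTR libraries. The log2 fold change of Tubb5 was −0.33 (standard error 0.148, unadjusted p = 0.0600, adjusted p = 0.627 from edgeR). No window of 50 bases in the ends of Tubb5 and Tubb6 occurs in another gene's transcripts.

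Tuba1b (ENSMUSG00000023004, chromosome 15, 98931425 to 98934565, − strand), an α-tubulin made in most cells, was at 193, 249 and 194 CPM in CTR and at 201.1, 233, 124 and 176 CPM in VPA libraries. The groups overlapped, with VPA replicates 3 and 4 below all CTR libraries (log2 fold change −0.20, standard error 0.227, adjusted p = 0.924 from edgeR). The value for Tuba1b was −0.06 when VPA replicate 3, −0.08 when CTR replicate 2 and −0.34 when VPA replicate 2 was left out. Tubb2a (ENSMUSG00000058672, chromosome 13, 34074274 to 34078007, − strand), a β-tubulin prominent in brain, was at 42.9, 30.9 and 57.0 CPM in CTR and at 64, 60.9, 43.4 and 49.1 CPM in VPA libraries. Here VPA replicates 1 and 2 lay above all CTR libraries and the other VPA libraries within their range (log2 fold change 0.32, standard error 0.270, adjusted p = 0.878 from edgeR). The value for Tubb2a was 0.12 when CTR replicate 2 and 0.54 when CTR replicate 3 was left out. The ends of Tuba1b and Tubb2a share 34.7% and 16.3% of their windows of 50 bases with other genes, for Tubb2a with Tubb2b and a pseudogene. Gm49450, an annotated gene overlapping Tuba1a and Tuba1b on the same strand, had no counts.

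The other 15 tubulin genes were examined as a list, of which 9 had counts and 6 were tested, 4 with negative and 2 with positive log2 fold changes. Tuba1c was the most abundant tubulin gene in every library, at 1119, 1230 and 812 CPM in CTR and at 561, 576, 677 and 869 CPM in VPA libraries. VPA replicate 4 fell between the CTR values and the other VPA libraries were under them (log2 fold change −0.65, standard error 0.215, unadjusted p = 0.0172, adjusted p = 0.487 from edgeR). In the last 300 bases of Tuba1c, 43.0% of the windows of 50 bases occur in transcripts of other genes, among them Tuba1a and Tuba1b. The division of counts among these genes is uncertain, and so are the level and rank of Tuba1c. Tubb4b, a β-tubulin of cilia and most other cells, was at 214, 282 and 196 CPM in CTR and at 129, 141, 193 and 137 CPM in VPA libraries, without overlap (log2 fold change −0.62, standard error 0.202, unadjusted p = 0.0160, adjusted p = 0.474 from edgeR). Tuba1c and Tubb4b were the 2 genes of this list with an unadjusted p under 0.05, and neither passed after adjustment. Tuba3a, Tuba3b, Tuba8, Tubal3, Tubb1 and Tubg2 had no counts in any library.

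The makeup of each family is free of the scaling between libraries, but it rests on the uncertain division of counts among genes with shared ends. Of all α-tubulin counts, Tuba1c took 67.2 ± 2.28% in CTR (SD, n = 3) and 61.6 ± 9.12% in VPA libraries (SD, n = 4), with 49.2% in VPA replicate 2. Tuba1b took 13.7 ± 1.83% and 17.0 ± 4.43%, and Tuba1a 6.21 ± 1.01% and 4.33 ± 2.07%. Tuba1a thus ranged from 5.22% to 7.25% in CTR and from 2.46% to 7.17% in VPA libraries, and the groups that were apart in CPM overlapped in this share. Of all β-tubulin counts, Tubb5 took 57.8 ± 5.01% in CTR and 57.6 ± 2.95% in VPA libraries, a difference far inside the spread. Tubb6 took 10.9 ± 3.80% and 8.83 ± 1.68%, and Tubb2a 4.2 ± 1.54% and 6.50 ± 1.41%. Tubb2b, the near copy of Tubb2a, also chosen after its values were seen, ran from 3.17% to 6.43% in CTR and from 6.47% to 15.1% in VPA libraries. In CPM the groups overlapped for Tubb2b (log2 fold change 0.58, standard error 0.340, adjusted p = 0.746 from edgeR). Summed, the α-tubulin genes were at 1241 to 1853 CPM (CTR) and 930.4 to 1267 CPM (VPA), and the β-tubulin genes at 973 to 1099 CPM and 794 to 930.5 CPM. The ratio of α- to β-tubulin counts was 1.48 ± 0.208 in CTR and 1.30 ± 0.261 in VPA libraries, with overlap.

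**Figure D3:**
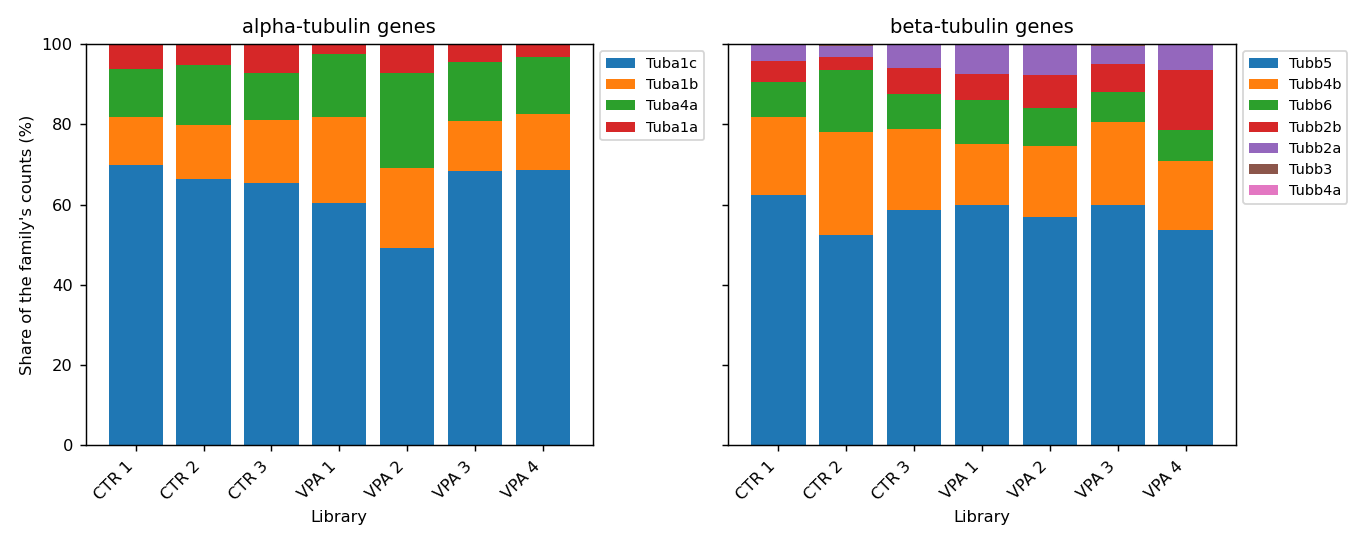
Share of the counts of each tubulin family (y axis, percent, stacked to the whole) taken by each α-tubulin gene (left) and β-tubulin gene (right) in each of the 7 libraries (x axis). Tuba1c and Tubb5 take the greatest share of their families in every library, and Tuba1c is lowest in VPA replicate 2 at 49.2%.

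The machinery around the cofactors was read from further lists of genes. Of the 8 subunits of the CCT chaperonin, 6 had negative and 2 positive log2 fold changes, with a median of −0.13. Their sum was 1532 to 1666 CPM (CTR) and 1371 to 1542 CPM (VPA). Cct5 was at 267, 246 and 262 CPM in CTR and at 184, 182, 216 and 229 CPM in VPA libraries, without overlap (log2 fold change −0.35, standard error 0.138, unadjusted p = 0.0365, adjusted p = 0.571 from edgeR). It was the only subunit with an unadjusted p under 0.05. Of the 6 subunits of prefoldin, 4 were negative and 2 positive, with a median of −0.07 and none at an unadjusted p under 0.05. Its most abundant members were Pfdn1, at means (± SD) of 155 ± 9.86 CPM (CTR) and 121 ± 27.4 CPM (VPA), and Pfdn5, at 104 ± 19.3 and 98.2 ± 32.4 CPM.

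The 6 relatives and partners of the cofactors were divided into 3 negative and 3 positive, none at an unadjusted p under 0.05. Tbcel, a relative of Tbce, was at 120.5 ± 12.4 CPM (CTR) and 90.5 ± 22.4 CPM (VPA), and the small GTPase Arl3 was at 37.4 ± 7.59 and 62.7 ± 24.4 CPM. Arl2, named as the partner of TBCD and chosen here after its values were seen, had 105, 134 and 73 counts in CTR replicates 1 to 3, 0 counts in VPA replicates 1 to 3 and 42 counts in VPA replicate 4. Of 7 genes tested for the γ-tubulin ring, which seeds microtubules, 5 were negative and 2 positive and none had an unadjusted p under 0.05. By the mean over all 7 libraries the most abundant were Tubgcp6 and Tubgcp4, of which Tubgcp4 was the higher in CTR. Tubgcp6 had means of 31.8 ± 9.41 CPM (CTR) and 26.6 ± 19.0 CPM (VPA). Tubgcp4 had a mean of 33.1 ± 18.8 CPM in CTR, with 109, 228 and 21 counts in CTR replicates 1 to 3, and was listed at 0 in VPA replicate 1, with 34, 51 and 6 counts in VPA replicates 2 to 4.

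Of 12 enzymes tested that modify tubulin, 8 were negative and 4 positive, and 1 had an unadjusted p under 0.05. This was Sirt2, a deacetylase of α-tubulin, at 39.4, 39.2 and 38.4 CPM in CTR and at 52.9, 62.4, 49.8 and 50.6 CPM in VPA libraries, all above CTR (log2 fold change 0.47, standard error 0.184, adjusted p = 0.571 from edgeR). Of 20 proteins tested that bind or move along microtubules, 12 were negative and 8 positive. Map7, which recruits kinesin, was at 44.9, 48.1 and 46.1 CPM in CTR and at 80.3, 57.5, 60.2 and 71.7 CPM in VPA libraries (log2 fold change 0.54, standard error 0.189, adjusted p = 0.515 from edgeR). Map1lc3b, which coats autophagosomes, was at 142, 156 and 122 CPM in CTR and at 209.6, 211 and 189 CPM in VPA replicates 1 to 3 and 176 CPM in VPA replicate 4 (log2 fold change 0.49, standard error 0.149, adjusted p = 0.447 from edgeR). Both lay above all CTR libraries in all VPA libraries, as 4.44% of the genes tested did. Over these 7 lists together, 65 of 79 genes were tested, 42 with negative and 23 with positive log2 fold changes and a median of −0.11, and 3 in each direction had an unadjusted p under 0.05, where the background is 4.62% lower and 3.65% higher.

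**Figure D4:**
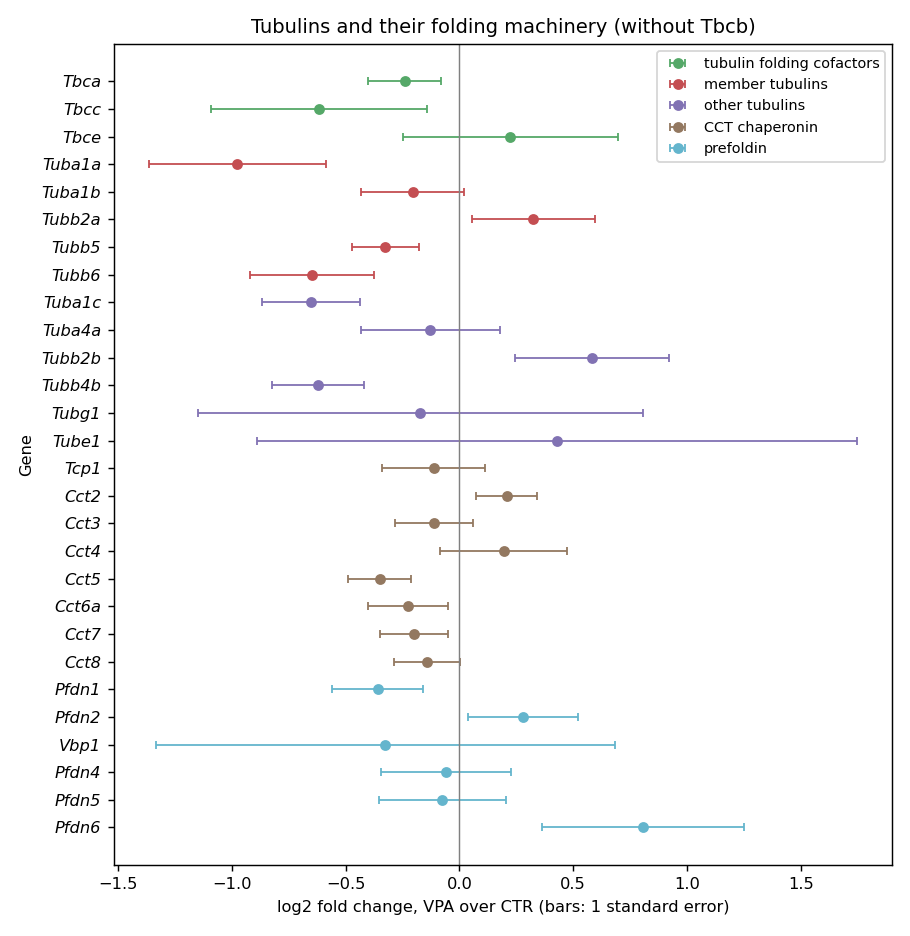
log2 fold change of VPA over CTR libraries from edgeR (x axis, log2 scale, points) with 1 standard error (bars) for the folding cofactors and tubulins described here, the other tubulins, the CCT chaperonin and prefoldin (y axis, genes, colored by list), without Tbcb. Tuba1a lies furthest to the left at −0.98, and the bars of Tube1 and Vbp1, which have a library at 0, are the widest with that of Tubg1.

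The VPA libraries, in which Tuba1a and Tubb5 were below all CTR values, also lay below CTR in the summed HSC activation and proliferation markers. Of the 12 genes on the HSC activation list, all tested, 11 had negative log2 fold changes and 6 were lower at an unadjusted p under 0.05, against 54.2% and 4.62% of all genes tested. Of the 12 proliferation markers, 4 could be tested, 3 of them negative and at an unadjusted p under 0.05. Among these 3, Mki67 and Cenpf were at 0 in some VPA libraries. Both passed the filter on low counts through their CTR counts, so their p-values are no test of them. The 8 endothelial markers summed to 229 to 258 CPM (CTR) and 69.2 to 253 CPM (VPA), and all VPA libraries but VPA replicate 2 were under the CTR values. Of the 7 endothelial markers tested, 5 were negative and 2 positive, with a median of −0.61. Tek, the receptor of angiopoietins, was at 0 in all VPA libraries, so it passed the filter on low counts through its CTR counts only. It was the 1 marker with an unadjusted p under 0.05, which is therefore no test of it. Cdh5 was below CTR in all VPA libraries and at 0 in VPA replicates 1 and 2. Stab2, Lyve1, Clec4g and Oit3 were also at 0 in some libraries. Summed markers overlapped between the groups for macrophages (247 to 361 and 244 to 511 CPM, Adgre1 and Marco at 0 throughout) and cholangiocytes (268 to 616 and 258 to 741 CPM, Muc1 at 0 throughout). The macrophage markers Clec4f, Vsig4, C1qa, C1qb and Cd5l and the cholangiocyte markers Krt7, Krt19, Epcam and Cftr were at 0 in some libraries. The part of these cells in the tubulin values was not tested.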

How the data were processed

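RNA-seq of mouse PCLS on day 3 of culture was analyzed, with 3 CTR and 4 VPA libraries grouped by their labels. The authors used a QuantSeq FWD kit, which sequences the ends of transcripts next to the poly(A) tail, and after quality control and trimming ran STAR (GRCm38) and StringTie. They deposited raw counts per Ensembl gene without normalization. How reads were counted, with which strand setting and with what treatment of multimapped reads, is not given in the sources used here. Symbols and coordinates came from GENCODE M21 (GRCm38). The libraries held 1400887 to 4773750 counts.

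Counts were tested in R 4.3.3 with edgeR 4.0.16 (TMM, filterByExpr, robust quasi-likelihood test, group as the only term) over 10876 genes with Benjamini-Hochberg adjustment at 0.05. limma 3.58.1 (voom) and DESeq2 1.42.0 were alternatives, beside other normalizations and filters, replicate blocks and leaving out each library. log2 CPM had a prior count of 2. On simulated counts with known changes edgeR missed most of the changed genes at the spread of these libraries and found most of them at a smaller spread, and at both DESeq2 called more of them but also more unchanged genes than its threshold allows. Libraries of a group differed by more than sampling noise (chi-square per degree of freedom 13.0 to 24.3).

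Named were the 10 genes, genes of the lists with an unadjusted p under 0.05 or else the 2 most abundant, genes within 20 kb of Tbcb, and the 5 nearest profiles and 5 most abundant genes without VPA counts. Arl2, Tubb2b, Tubg1 and the genes overlapping other members fall outside this rule and were named after their values were seen. Cell type markers named singly, such as Alb and Cdh5, also fall outside it. The members and lists were chosen with earlier results of these data known. The qPCR, protein and histology experiments were not used.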

Additional observations from a re-analysis of the deposited data

How the results depend on the processing

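For the 8 genes tested other than Tbcb, each value was recomputed under 16 alternatives, and in 125 of 128 cases the direction and the side of the threshold were the same, with the adjusted p above 0.05 in all. The exceptions were for Tbce, whose log2 fold change of 0.22 was −0.19 with limma-voom, −0.0475 with the replicate block by the number in the title code and −0.0188 without VPA replicate 1 (−0.0188 to 0.4252 over the libraries left out), and the cause was not tested. Tuba1a ranged from −1.40 to −0.74 and had an unadjusted p under 0.05 in 10 of 16 alternatives, Tubb6 ranged from −0.85 to −0.29 in 8 of 16, Tubb5 from −0.43 to −0.25 in 3 of 16 and Tbca from −0.36 to −0.18 in 1 of 16. Tbcc ranged from −1.09 to −0.37, Tuba1b from −0.34 to −0.06 and Tubb2a from 0.12 to 0.54, in 0 of 16 each. The mean CTR level of Tbcb was 101 CPM with RLE and 100.8 CPM with upper quartile normalization, and 92.6 to 117 CPM with each CTR library left out. Over all genes, the counts of 1 higher and 0 lower became 39 and 115 with DESeq2, 2 and 8 with no filter, and 17 and 19 with at least 10 counts in every library, where 6652 genes were tested. With a replicate block by the title number they were 0 and 0, and by replicate number 0 and 0 (360 and 508, and 372 and 612, at an unadjusted p under 0.05). The deviations of libraries with the same title number correlated at 0.107, 0.0256 and 0.0546 (numbers 71, 72 and 74) and of those with the same replicate number at −0.0539, 0.0546 and 0.107. Replicates 2 and 3 pair the same libraries under both numbers. Between CTR and VPA libraries with different title numbers the correlations ran from −0.155 to 0.0714. These values cannot show whether a shared number marks a shared liver, and the libraries were treated as unpaired in the main test. With each library left out the counts went from 0 to 1 higher and from 0 to 2 lower. Without CTR replicate 3 or VPA replicate 2, 1 gene was lower, and without VPA replicate 4, 2 were. Depth limits Tbcd to 0.591 to 2.41 CPM and Tbcb in VPA libraries to 0.922 to 2.41 CPM, for counting error only. Under the stricter filter Tbcb was not tested.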
